A study of Homo sapiens with 14 samples.

Results

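The 6 loci described here carry genes at the core of the pluripotency network of human embryonic stem cells (hESCs). They are the loci of POU5F1 (which encodes OCT4), SOX2, NANOG, LIN28A, SALL4 and PRDM14, 6 of 20033 protein-coding genes on chromosomes 1 to 22, X and Y in GENCODE release 44 (hg38). Each locus was taken as the gene body with 60 kb on each side, and the peaks of every list that overlapped this window by 1 bp or more were counted and placed. No measured value entered the rule for the choice of genes, although earlier results of these data were known when it was made.

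The study performed chromatin immunoprecipitation followed by sequencing (ChIP-seq) on WIBR3, an established hESC line, in 2 culture states. Primed cells were kept in conventional medium with serum, serum replacement and FGF2, and naïve cells were obtained from primed cells by resetting in 5i/L/A medium and expanded as a polyclonal culture. Both states grew on mouse feeder cells, and no genetic change is given in the labels for either state. Antibodies recognised BRG1 (SMARCA4) and BRM (SMARCA2), BAF155 (SMARCC1), and SOX2, in each state. The labels give 14 samples, of which 4 are inputs.

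OCT4, SOX2 and NANOG are transcription factors that bind their own genes and those of one another, and the loci of such factors are known for clusters of enhancers. The BAF complex moves nucleosomes with the energy of ATP, through either BRG1 or BRM as its motor subunit, while BAF155 is part of its scaffold. POU5F1 is known for a proximal and a distal enhancer upstream of its start, with the distal element tied to naïve and the proximal element to primed pluripotency in mouse cells.

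The lists differed in length, which bears on each count given here. Naïve lists held 57884 BRG1, 62338 BAF155, 17413 BRM and 1940 SOX2 peaks, and primed lists held 15611 BRG1, 58352 BAF155, 167 BRM and 9290 SOX2 peaks. No read total was used in a value given here. By the totals that the study lists, the naïve BRG1 library held fewer uniquely mapped non-redundant reads than the primed one although its list was longer, the BAF155 and the BRM libraries were close between the states, and the naïve SOX2 library held fewer than the primed one. The SOX2 lists of both libraries of a state were identical in position, so they count here as 1 sample. Every other antibody had 1 library per state. No value therefore has a replicate error and no test was run. Intervals are exact Clopper-Pearson intervals at the 95% level and cover counting error only. Fold is the enrichment over input that the authors' peak caller gave, at the summit for the narrow SOX2 peaks and as a mean over the region for the broad peaks of the BAF subunits, so folds are compared only within a list. Transcript levels were not measured in these files.

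The 6 windows held 85 naïve BRG1 peaks, 100 naïve BAF155 peaks, 35 naïve BRM peaks and 10 naïve SOX2 peaks. In the primed state they held 27 BRG1 peaks, 44 BAF155 peaks and 21 SOX2 peaks. The primed BRM list had 0 peaks in the 6 windows, and genome-wide it reached 0.619% of protein-coding genes under the same windows. Naïve BRG1 peaks outnumbered primed ones at all 6 loci, with counts of 10 and 2 at POU5F1, 7 and 6 at SOX2, 17 and 3 at NANOG, 15 and 7 at LIN28A, 17 and 4 at SALL4, and 19 and 5 at PRDM14. The difference was not seen at equal list lengths. With the naïve BRG1 list held to its 15611 top-ranked peaks, the length of the primed list, the sums over the loci were 29 naïve and 27 primed peaks, and SOX2, LIN28A and SALL4 then had more primed than naïve ones. BAF155, whose lists were of like length, had 9 peaks in each state at SOX2 and more naïve than primed peaks at the other 5 loci, such as 14 and 4 at POU5F1 and 21 and 9 at NANOG. At a −log10 q of 3 or more this held at POU5F1, NANOG and SALL4, while LIN28A had 8 naïve and 8 primed BAF155 peaks and PRDM14 and SOX2 each had 5 and 6. The BAF155 lists were no longer of like length at this cut, with 17665 naïve and 27065 primed peaks. The SOX2 protein went the other way, with more primed than naïve peaks at the SOX2 gene, LIN28A, SALL4 and PRDM14, equal counts of 2 at POU5F1, and 3 naïve and 2 primed peaks at NANOG. With the primed SOX2 list held to its 1940 top-ranked peaks, 8 primed SOX2 peaks were left in the loci, against 10 naïve ones.

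**Figure D1:**
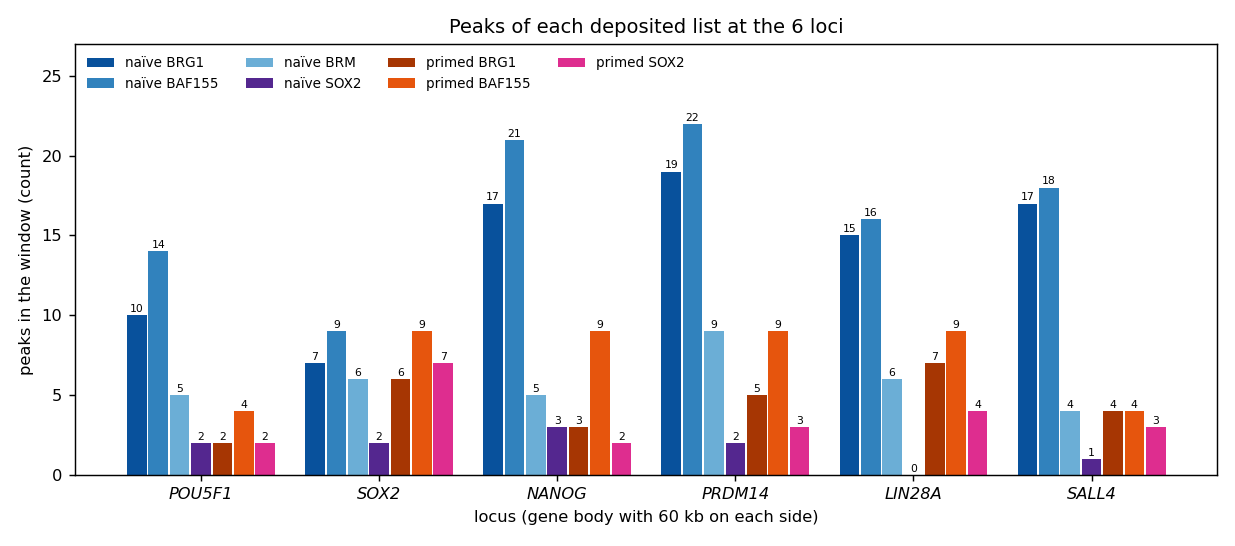
Number of peaks (y axis, count) of 7 lists in the window of each gene (x axis, gene body with 60 kb on each side), 1 bar for each list with its count above it. Naïve BAF155 reached 22 peaks at PRDM14, while naïve SOX2 had 0 peaks at LIN28A; the primed BRM list had 0 peaks in all 6 windows and is not drawn.

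Most lists had more peaks at the loci than at a typical protein-coding gene. At least 1 naïve SOX2 peak lay in 5 of the 6 windows, against 13.2% of protein-coding genes, and at least 1 primed SOX2 peak in 6 of 6, against 42.6%. Naïve BRM reached all 6 windows, against 70.2% of genes. The median number of peaks per 100 kb of window was 11.5 over the members and 3.31 over all genes for naïve BRG1, 12.2 and 3.67 for naïve BAF155, 3.21 and 0.746 for primed BRG1, and 6.45 and 3.06 for primed BAF155. Not every locus stood above the median, since primed BAF155 had 2.93 peaks per 100 kb at POU5F1 and 2.85 at SALL4. The naïve BRG1 count at SOX2 and the primed BRG1 count at POU5F1 were above those of 54.3% and 54.4% of genes. A list of 16 other pluripotency genes, among them DPPA2, ZFP42, LIN28B and TRIM71, had a naïve SOX2 peak in 12 windows, a primed SOX2 peak in 15 and a naïve BRM peak in 16. The windows of the 16 genes had a median of 4 naïve BRM peaks, against 5.5 over the 6 members and 1 over all genes. Of the 16, the window of GDF3 overlapped that of NANOG, so those genes shared peaks.

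POU5F1 (ENSG00000204531.21) lies on chromosome 6, 31164337 to 31180731, minus strand, and its MANE Select transcript starts at 31170682. Its upstream elements were read in 3 windows at fixed distances from this start, set at about where the proximal and distal enhancers are placed. No enhancer coordinates or marks were used. The names distal and proximal element therefore stand here for what lies in these windows. In the promoter window, 0 to 500 bp upstream, naïve BRG1 covered 500 bp and naïve BAF155 235 bp, and the primed lists covered 0 bp. In the window of the proximal enhancer, 500 to 1600 bp upstream, primed SOX2 covered 446 bp and naïve SOX2 0 bp, while naïve BRG1 covered 1100 bp, naïve BAF155 507 bp, primed BRG1 437 bp and primed BAF155 559 bp. In the window of the distal enhancer, 1600 to 3200 bp upstream, 7 lists had a peak, and SOX2 covered 301 bp in the naïve and 466 bp in the primed state. BRM covered 271 bp of the distal window and 0 bp of the proximal one. SOX2 was thus called in the distal window in both states and in the proximal window in the primed state alone. For BRG1 and BAF155, the same broad peak of a list reached into both windows in each state. These peaks spanned 31169456 to 31173275 (naïve BRG1), 31171776 to 31173703 (naïve BAF155), 31171846 to 31173501 (primed BRG1) and 31171724 to 31173352 (primed BAF155). Peaks of this width cannot tell the elements apart, so no contrast with the narrow SOX2 peaks is drawn.

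The primed SOX2 peak at the distal element (31172808 to 31173273) had a fold of 19.2 and ranked 192 of 9290 by fold, and the naïve one (31172938 to 31173238) had a fold of 10.4 and ranked 363 of 1940. The primed SOX2 peak at the proximal element (31171820 to 31172265) had a fold of 13.7. Both upstream elements fall in annotated intron sequence of longer POU5F1 transcripts. The POU5F1 peak of highest naïve SOX2 fold lay elsewhere, at 31131626 to 31131931, 38.9 kb downstream of the start in an intron of PSORS1C1. Its fold was 15.5, rank 92 of 1940, and naïve BRG1, BAF155 and BRM peaks lay over it, while no primed list had a peak there. The sequences of these 3 sites are shown because they are the sites at POU5F1 where SOX2 was called in both states, in primed cells alone and in naïve cells alone; the last was chosen after its values were seen. They are hg38 reference sequence on the minus strand, the strand of the gene, from chr6:31173008-31173247 (distal element), chr6:31171911-31172150 (proximal element) and chr6:31131672-31131911 (naïve site), with matches to the motifs defined next in capitals.
POU5F1 distal element: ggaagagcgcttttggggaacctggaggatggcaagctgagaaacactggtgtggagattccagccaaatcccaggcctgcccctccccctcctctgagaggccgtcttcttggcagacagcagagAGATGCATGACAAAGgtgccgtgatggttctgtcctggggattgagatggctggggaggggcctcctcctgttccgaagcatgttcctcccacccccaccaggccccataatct
POU5F1 proximal element: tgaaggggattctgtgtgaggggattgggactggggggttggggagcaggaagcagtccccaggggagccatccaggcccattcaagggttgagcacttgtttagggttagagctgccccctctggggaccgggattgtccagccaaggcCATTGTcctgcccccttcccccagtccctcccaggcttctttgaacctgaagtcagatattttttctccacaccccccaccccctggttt
POU5F1 naïve site: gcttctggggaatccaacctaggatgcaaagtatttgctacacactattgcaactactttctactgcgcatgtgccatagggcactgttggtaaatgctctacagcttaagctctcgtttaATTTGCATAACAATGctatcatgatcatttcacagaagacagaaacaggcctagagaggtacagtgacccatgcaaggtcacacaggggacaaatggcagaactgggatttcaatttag

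Capitals mark the SOX core (CATTGT or CTTTGT), the octamer bound by OCT4 (ATGCAAAT) and the OCT4-SOX2 composite element, in which a SOX core and an octamer stand side by side, with up to 2 mismatches, on either strand. The SOX core and the octamer are parts of the composite element, so their matches overlap. In the naïve site the composite element matched with 0 mismatches at bases 122 to 136 of the printed run, on the other strand. In the distal element it matched with 2 mismatches at bases 127 to 141, also on the other strand. The proximal element held a SOX core at bases 151 to 156 and no match to the composite element. These are matches of letters and not tests of binding.

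**Figure D2:**
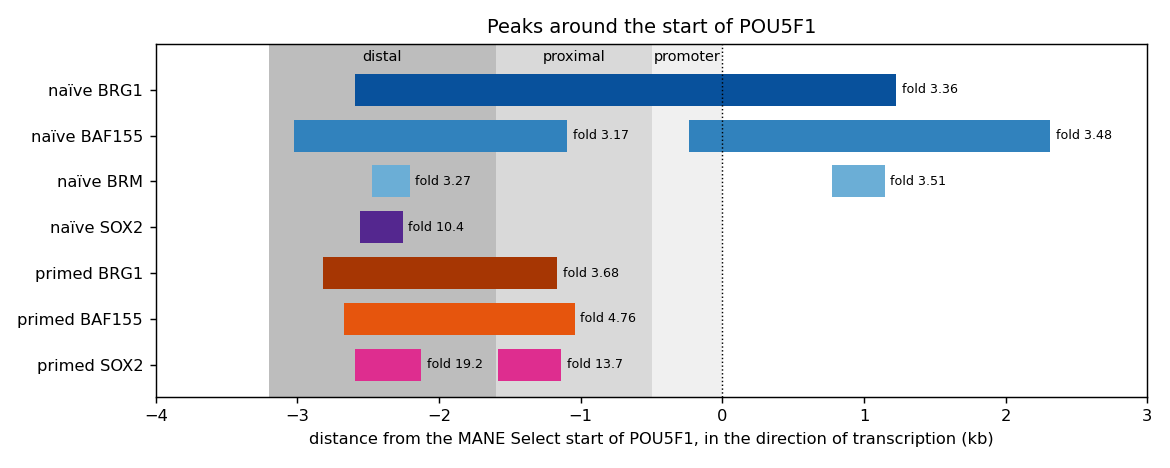
Peaks around the MANE Select start of POU5F1 (x axis, distance in kb in the direction of transcription, dotted line at the start), 1 row for each list, with the fold of each peak beside it and the promoter, proximal and distal windows shaded. The primed SOX2 peaks of folds 13.7 and 19.2 fall in the proximal and distal windows, the naïve SOX2 peak of fold 10.4 in the distal window alone, and the naïve BRG1 peak of fold 3.36 runs over all 3 windows and the start.

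Further out, the POU5F1 window held 8 naïve-only and 4 common BAF regions and 0 primed-only ones. BAF regions are merged BRG1 and BAF155 peaks of a state, those with no partner in the other state are naïve-only or primed-only, and partners overlap by at least 25% of either region. The naïve-only region of highest fold (4.17) spanned 31114046 to 31115697 at the promoter of PSORS1C1, 55.8 kb downstream of the POU5F1 start. The naïve BRM peak of highest fold at the locus (3.51) lay at 31169537 to 31169908, within the gene and under 1 kb from its start. The window holds 6 other protein-coding genes, and processed copies of POU5F1 exist elsewhere in the genome, which can share reads with its exons.

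SOX2 (ENSG00000181449.4; chromosome 3, 181711925 to 181714436, plus strand), an HMG-box factor that pairs with OCT4 on DNA, lies within the long noncoding gene SOX2-OT, and no other protein-coding gene falls in its window. A site 4.21 kb downstream of its start carried the peak of highest fold at the 6 loci in each SOX2 list. The naïve peak (181715961 to 181716325) had a fold of 15.9 and ranked 80 of 1940, and the primed peak (181715923 to 181716354) had a fold of 24.2 and ranked 59 of 9290. BRG1 and BAF155 in both states and naïve BRM had peaks over it. The other site in both states, 16 kb downstream, was weak in each list, with folds of 4.68 and 4.46.

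The states parted further downstream of SOX2. Primed cells had 3 SOX2 peaks between 181756038 and 181758280, 44.3 to 46.2 kb from the start, with folds of 8.81, 16.9 and 7.95, and primed BRG1 and BAF155 formed a primed-only region over them (181756070 to 181758337, highest fold 4.86). Naïve cells had no SOX2 peak there. Close by, naïve BRG1 and BAF155 formed a naïve-only region (181760502 to 181763757) 50.2 kb from the start with a naïve BRM peak (181760599 to 181762334) of fold 3.6 and no SOX2 peak of either state. Further primed SOX2 peaks without a naïve partner lay 1.46 kb upstream (fold 7.78) and 13.5 kb downstream (fold 5.15). The naïve-only region of highest fold (3.65) was a narrow BAF155 region 9.67 kb upstream (181702144 to 181702368). A pair of hg38 stretches on the plus strand are shown, chr3:181716012-181716251 from the shared site and chr3:181761347-181761586 from the naïve BRM peak, since they stand for a site kept in both states and a site of the naïve state.
SOX2 shared site: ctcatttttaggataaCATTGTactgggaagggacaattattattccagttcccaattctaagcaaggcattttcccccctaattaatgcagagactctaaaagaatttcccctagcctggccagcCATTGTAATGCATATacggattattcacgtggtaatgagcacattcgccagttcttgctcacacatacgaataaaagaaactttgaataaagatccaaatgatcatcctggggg
SOX2 naïve BRM site: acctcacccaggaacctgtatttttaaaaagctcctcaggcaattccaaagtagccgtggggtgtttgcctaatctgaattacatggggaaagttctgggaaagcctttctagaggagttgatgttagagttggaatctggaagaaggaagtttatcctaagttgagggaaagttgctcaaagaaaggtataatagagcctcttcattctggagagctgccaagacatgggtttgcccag

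The shared site held a SOX core at bases 17 to 22 and the composite element with 1 mismatch at bases 127 to 141. The printed stretch of the naïve BRM site held none of the 3 motifs.

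NANOG (ENSG00000111704.11; chromosome 12, 7787794 to 7799146, plus strand), a homeobox factor, has its MANE Select start at 7789402. Its promoter was 1 of the sites with SOX2 in both states. The naïve SOX2 peak (7789186 to 7789486) had a fold of 10.8 and the primed peak (7789166 to 7789423) a fold of 8.67, and both covered the start. Only 8 protein-coding genes, 0.0399% of those tested, had their start inside a naïve SOX2 peak, and NANOG was the only one of the 6 members. BAF155 was called at this promoter in both states, although the naïve peak ended short of the start, and neither BRG1 list had a peak over the start. The −log10 q of the BAF155 peaks was 1.36 in naïve and 2.77 in primed cells, both under the stricter cut of 3. By fold the naïve peak ranked 59461 of 62338. Both BRG1 lists did have a peak over the 5′ end of the gene record at 7787794 (naïve 7787241 to 7787970, primed 7787689 to 7787833). Away from the MANE Select start the SOX2 sites differed between the lists. Naïve cells had a SOX2 peak 4.6 kb upstream (7784592 to 7785010, fold 5.66) and another 31 kb upstream (7758257 to 7758515, fold 7.8), both under naïve BRG1, BAF155 and BRM, whereas primed cells had one 1.64 kb upstream (7787615 to 7787917, fold 5.48). The midpoint of this primed peak lay 28 bp from the 5′ end of the NANOG gene record, so it too is at an annotated NANOG start.

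The site 4.6 kb upstream of NANOG lay in the naïve-only BAF region of highest fold at the locus (7784141 to 7786098, fold 4.01), and no primed list had a peak in it. The primed-only region of highest fold (4.69) was at 7851352 to 7852278, 62.4 kb downstream. The naïve BRM peak of highest fold (4.74) was at 7762845 to 7763127, 26.4 kb upstream and between genes, in a naïve-only BAF region. The locus held 16 BAF regions of the naïve state alone, 3 of the primed state alone and 5 of both. NANOG has processed copies elsewhere in the genome and the window includes the related gene NANOGNB, so reads can be shared between copies there. Sequence on the plus strand of hg38 is shown for the part of the promoter peak before the transcript start (chr12:7789186-7789401), for the naïve site 4.6 kb upstream (chr12:7784771-7785010, chosen after its values were seen) and for the BRM peak (chr12:7762866-7763105), the promoter being shared by the states and the other two found in naïve cells alone.
NANOG promoter site: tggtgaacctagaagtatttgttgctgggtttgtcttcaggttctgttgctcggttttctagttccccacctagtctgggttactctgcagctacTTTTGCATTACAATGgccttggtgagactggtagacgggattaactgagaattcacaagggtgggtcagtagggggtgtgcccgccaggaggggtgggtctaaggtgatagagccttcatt
NANOG naïve SOX2 site: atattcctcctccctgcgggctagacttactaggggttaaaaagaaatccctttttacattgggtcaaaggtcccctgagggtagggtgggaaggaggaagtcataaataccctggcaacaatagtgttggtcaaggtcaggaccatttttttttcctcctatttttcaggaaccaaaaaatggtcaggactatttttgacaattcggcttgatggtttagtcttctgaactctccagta
NANOG naïve BRM site: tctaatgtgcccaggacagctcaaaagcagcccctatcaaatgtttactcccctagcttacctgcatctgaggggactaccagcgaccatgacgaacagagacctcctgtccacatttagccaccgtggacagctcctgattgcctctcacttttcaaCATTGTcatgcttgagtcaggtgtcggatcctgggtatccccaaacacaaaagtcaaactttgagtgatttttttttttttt

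The promoter run held the composite element with 1 mismatch at bases 96 to 110, on the other strand. The naïve SOX2 site held none of the 3 motifs, and the BRM site held a SOX core at bases 159 to 164.

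LIN28A (ENSG00000131914.11; chromosome 1, 26410817 to 26429728, plus strand), an RNA-binding protein that blocks the maturation of let-7 microRNAs, was the only locus of the 6 with 0 naïve SOX2 peaks, and it had 4 primed ones. They lay at the promoter (26410139 to 26410889, fold 12.1), 8.26 kb downstream in an intron (26418911 to 26419247, fold 13.9), just past the gene (26429783 to 26430095, fold 7.51) and 58.9 kb downstream in an exon of DHDDS (26469604 to 26469818, fold 4.87). Naïve BRG1, BAF155 and BRM were nevertheless called at the promoter and at the intronic site. The promoter region was broad, with a naïve BAF155 peak of 4880 bp (fold 4.36) and a primed BAF155 peak of 5624 bp (fold 4.07). Within it, 2.08 kb upstream of the start, stood the primed BRG1 peak of highest fold at the 6 loci (26408605 to 26408864, fold 7.52, rank 93 of 15611), which was chosen after its values were seen. It also carried the naïve BRM peak of highest fold at the 6 loci (26408575 to 26410884, fold 4.82), the only BRM peak over a start among the members. The site just past the gene was a primed-only BAF region (26429704 to 26430232, highest fold 5.45), and the naïve-only region of highest fold (4.19) lay 14.6 kb upstream (26395797 to 26396617). The intronic SOX2 site, the highest of the locus, is shown from chr1:26418974-26419213, plus strand of hg38, as a site where BAF was called in both states and SOX2 in the primed state alone.
LIN28A intronic site: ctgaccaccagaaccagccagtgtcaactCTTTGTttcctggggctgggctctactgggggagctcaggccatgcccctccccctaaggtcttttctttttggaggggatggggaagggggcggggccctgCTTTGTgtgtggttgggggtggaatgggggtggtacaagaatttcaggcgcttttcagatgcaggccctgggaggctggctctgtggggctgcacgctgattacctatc

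This run held SOX cores at bases 30 to 35 and 132 to 137 and no composite element.

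SALL4 (ENSG00000101115.13; chromosome 20, 51782331 to 51802521, minus strand), a zinc finger factor, had 1 SOX2 site in both states, 9.23 kb upstream. The naïve peak (51811587 to 51811915) had a fold of 7.92 and the primed peak (51811607 to 51811969) a fold of 9.89. Naïve BRG1, BAF155 and BRM and primed BAF155 were called there, and primed BRG1 was not. Primed cells had further SOX2 peaks at the promoter (51802504 to 51802772, fold 7.71) and 2.72 kb into the gene (51799682 to 51799926, fold 6.56). The naïve BRM peak of highest fold (3.41) lay within the gene, 2.2 kb from the start (51800152 to 51800497). SALL4 had 19 naïve-only BAF regions, the most of the 6 loci, of which 0 held a BRM peak, and 1 primed-only region. The highest folds among these were 3.49 for the naïve-only region 35.5 kb upstream (51837654 to 51838399) and 3.52 for the primed-only one 46 kb upstream (51848323 to 51848722), both in introns of LINC01429. The shared site is shown from chr20:51811660-51811899, minus strand of hg38, as the only SOX2 site of this gene called in both states.
SALL4 shared site: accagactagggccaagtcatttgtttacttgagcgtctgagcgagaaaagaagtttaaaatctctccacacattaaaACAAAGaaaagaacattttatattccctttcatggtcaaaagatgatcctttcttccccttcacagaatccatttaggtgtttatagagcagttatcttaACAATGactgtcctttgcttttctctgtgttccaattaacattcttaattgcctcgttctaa

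The run held SOX cores on the other strand at bases 79 to 84 and 179 to 184, and no composite element was found in it.

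PRDM14 (ENSG00000147596.4; chromosome 8, 70051651 to 70071693, minus strand), a PR domain factor tied to germ cells and pluripotency, had the most naïve BRG1, BAF155 and BRM peaks of the 6 loci, 19, 22 and 9. A SOX2 site 3.76 kb upstream was called in both states, with a fold of 7.31 in naïve cells (70074888 to 70075129) and 5.76 in primed cells (70074695 to 70075205), and BRG1 and BAF155 of both states and naïve BRM lay over it. Primed cells also had SOX2 peaks at the promoter (70071922 to 70072198, fold 9.24) and 9.93 kb into the gene (70061192 to 70061456, fold 8.96). The naïve state had a weak SOX2 peak 75.5 kb downstream (69995592 to 69995829, fold 4.4), in a common BAF region with 3 naïve BRM peaks. Of 14 naïve-only regions, 4 held a BRM peak. The naïve-only region of highest fold (3.75) lay 47.2 kb downstream (70023482 to 70024532), the primed-only one (4.92) 22.3 kb upstream (70092606 to 70094496), and the BRM peak of highest fold (3.95) 27.7 kb upstream (70098920 to 70099083).

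**Figure D3:**
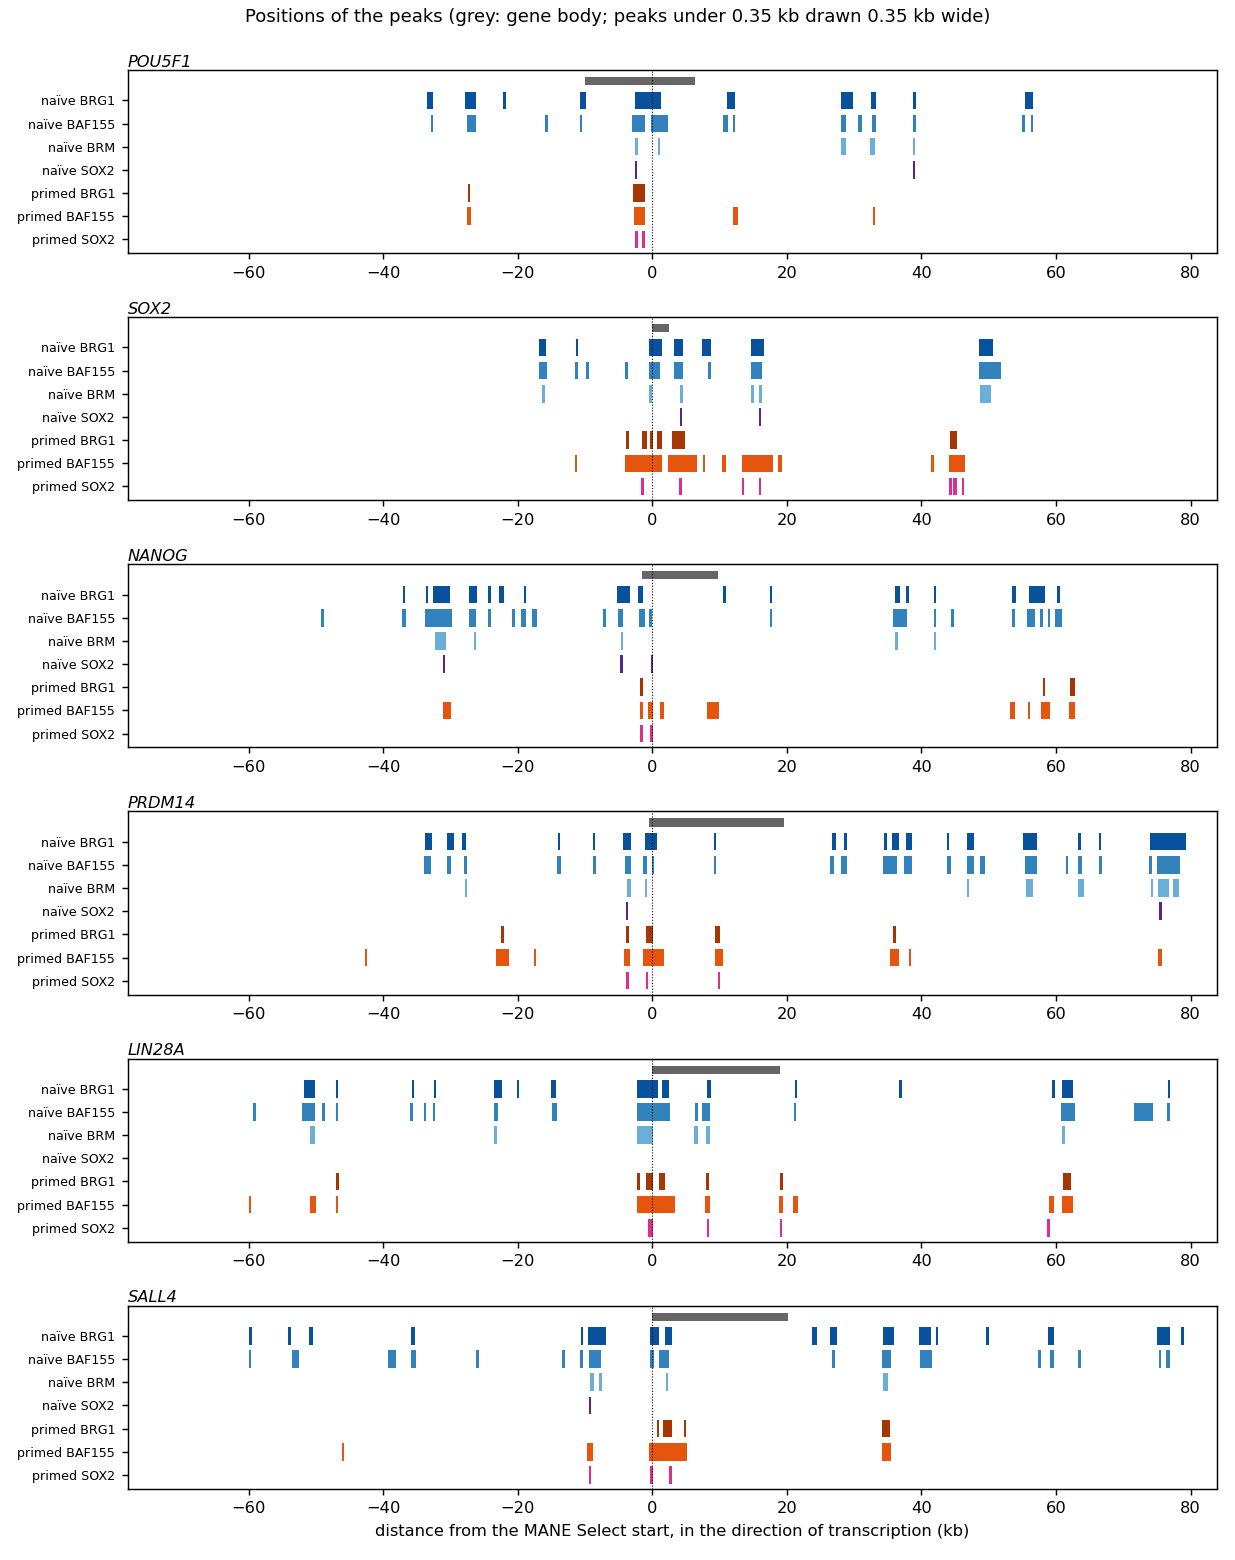
Positions of all peaks of 7 lists at the 6 loci (x axis, distance in kb from the MANE Select start in the direction of transcription), 1 row for each list, gene body in grey and the start as a dotted line. Naïve BRG1 and BAF155 peaks are spread over the windows, while the 3 primed SOX2 peaks 44.3 to 46.2 kb downstream of the SOX2 start stand in a place with no naïve peak.

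Over all 6 loci, the SOX2 peaks fell into 25 sites, 6 in both states, 4 in naïve cells alone and 15 in primed cells alone. The share of naïve SOX2 peaks with a primed partner was 60% (6 of 10; 26.2 to 87.8%), near the 47.9% of all naïve SOX2 peaks. The share of primed SOX2 peaks with a naïve partner was 28.6% (6 of 21; 11.3 to 52.2%), against 10.0% genome-wide. Median folds of the shared and unshared peaks at the loci were 9.28 and 7.95 in the primed list and 9.16 and 6.73 in the naïve list. These ranges overlapped, from 4.46 to 24.2 for shared and from 4.87 to 16.9 for unshared primed peaks. By place, 3 of the 15 primed-only SOX2 sites were within 1 kb of the start of the member, 4 between 1 and 5 kb and 8 further away, against 0, 1 and 3 of the 4 naïve-only sites. The same split over the windows of all genes was not computed. With so few naïve-only sites, no contrast between the states is drawn from it.

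**Figure D4:**
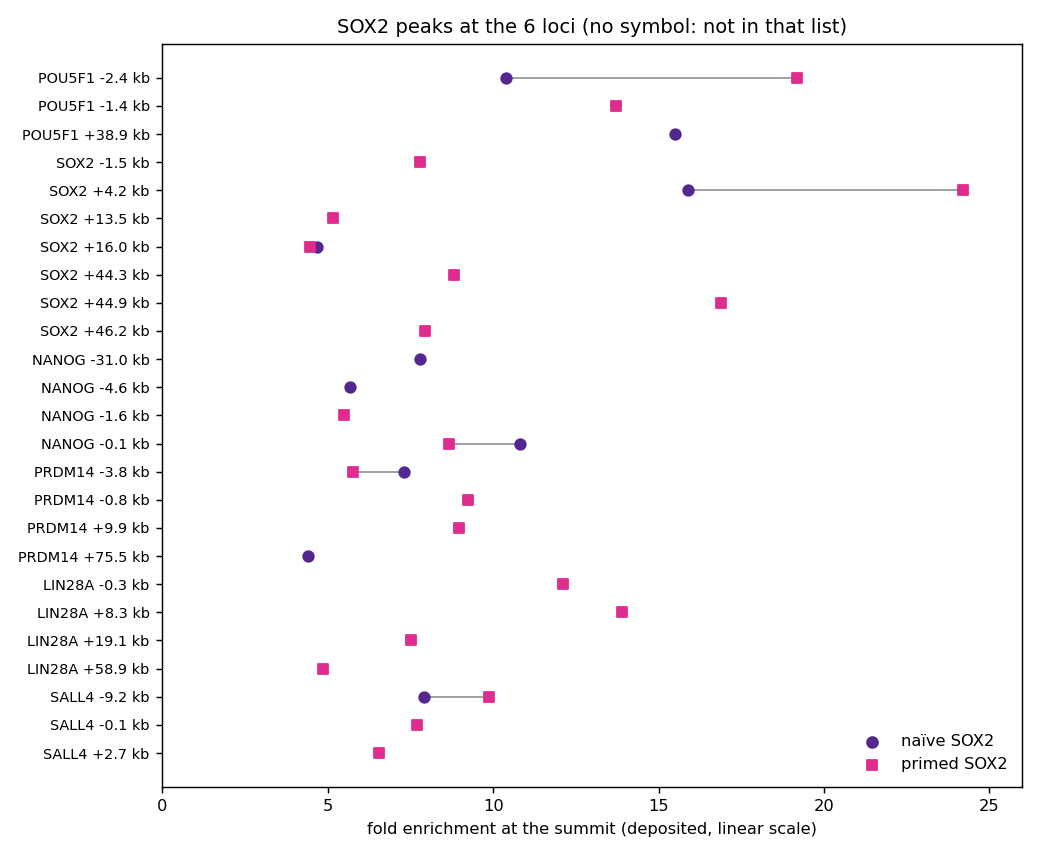
Fold enrichment of each SOX2 peak at the loci (x axis, linear scale, as deposited) for each site (y axis, gene and distance in kb from its start), circles for naïve and squares for primed cells, joined where both lists have a peak. The shared site 4.2 kb downstream of the SOX2 start has the highest fold of each list, 15.9 and 24.2, and all 4 LIN28A sites have a primed symbol alone; folds of the lists are not on a common scale.

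SOX2 peaks of the loci lay in BAF regions about as often as those of the genome. All 10 naïve SOX2 peaks (69.2 to 100%) were in a naïve BAF region, against 93% genome-wide, and 20 of 21 primed ones (95.2%; 76.2 to 99.9%) in a primed BAF region, against 88.4%. Naïve BRM coincided with 9 of the 10 naïve SOX2 peaks (90%; 55.5 to 99.7%), against 43.7% of all naïve SOX2 peaks, and the exception was the NANOG promoter. Many of these BRM peaks were weak. Their −log10 q was 1.21 and 2.18 at PRDM14, 1.23 and 3.13 at SOX2, and 1.33 at SALL4. It was 2.22 and 3.43 at NANOG and 2.83 and 3.17 at POU5F1, in a list whose lowest value was 1.01. The share was not recomputed at the stricter q-value. Of the 15 primed SOX2 peaks without a naïve partner, 7 overlapped a naïve BRG1 or BAF155 peak and 3 a naïve BRM peak. Conversely, 2 of the 4 naïve-only SOX2 sites overlapped a primed BAF155 peak and 0 a primed BRG1 peak. The same shares over all SOX2 peaks without a partner were not computed, so these counts stand without a background. Over all SOX2 peaks of the loci, 13 of 21 primed ones (61.9%; 38.4 to 81.9%) lay in a naïve BAF region, against 41.6% genome-wide, and 8 of 10 naïve ones (80%; 44.4 to 97.5%) in a primed BAF region, against 61.2%, and both intervals include the genome-wide share.

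In the 200 bp at the peak midpoint the composite element was searched with up to 2 mismatches. It was found in 4 of the 6 sites called in both states (22.3 to 95.7%), those of POU5F1, SOX2, NANOG and PRDM14. In the 15 primed-only sites it was found in 0 (0 to 21.8%). Genome-wide it was found in 28.6% of primed SOX2 peaks with a naïve partner and in 10.3% of those without. Each interval of the loci includes the corresponding genome-wide share. Of the 4 naïve-only sites 1 held it, the POU5F1 site 38.9 kb downstream, against 17% of naïve-only SOX2 peaks overall. The SOX core was found in 8 of 10 naïve and 14 of 21 primed SOX2 peaks of the loci, against 59% and 59.5% of all peaks of those lists. The octamer was found in 1 and 0 of them (13.4% and 8.89% of all), a KLF motif (GGGNGNGGC) in 1 and 3 (6.6% and 7.37%) and a TFAP2 motif (GCCNNNGGC) in 0 and 2 (5.15% and 5.86%). In the 35 naïve BRM peaks the composite element was found in 3, or 8.57%, against 1.95% of all naïve BRM peaks, the KLF motif in 4 (19.5% of all) and the TFAP2 motif in 1 (16.9% of all). The midpoint windows of the SOX2 and BRM peaks of a site overlap, so these lists do not give separate evidence.

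BAF regions of the loci numbered 104 in naïve and 44 in primed cells. Of the naïve regions, 30.8% (32 of 104; 22.1 to 40.6%) had a primed partner, near the 37.4% of all naïve regions. Of the primed regions, 70.5% (31 of 44; 54.8 to 83.2%) had a naïve partner, against 48.2% genome-wide. Naïve-only regions outnumbered primed-only ones at 5 of the 6 loci, and the SOX2 gene, with 3 and 4, was the exception. Genome-wide 66.1% of protein-coding genes had more naïve-only than primed-only regions in their windows, so a count of 5 of 6 is near the background. Regions of the loci were wide in each class. Common regions had a median of 1954 bp against 1113 bp for all common regions. For naïve-only regions the medians were 590 and 422 bp, and for primed-only regions 529 and 374 bp. Wide regions overlap other peaks more readily, which bears on the shares of BAF regions with BRM or SOX2 as well.

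BRM marked 28.8% of the naïve BAF regions at the loci (30 of 104; 20.4 to 38.6%), against 20.4% of all naïve regions. It was found in 50% of those with a primed partner (16 of 32; 31.9 to 68.1%) and in 19.4% of naïve-only ones (14 of 72; 11.1 to 30.5%), against 30.9% and 14.2% genome-wide. All 35 BRM peaks lay in naïve BAF regions, against 94.3% of all BRM peaks. SOX2 marked 9.62% of the naïve BAF regions (10 of 104; 4.71 to 17%), against 2.30% of all, and 34.1% of the primed ones (15 of 44; 20.5 to 49.9%), against 13.6%. In the primed state it was found in 41.9% of regions with a naïve partner (13 of 31) and in 15.4% of primed-only ones (2 of 13), against 13.7% and 13.4% genome-wide. Regions of a locus are neighbours and not independent, so these intervals are too narrow for a statement about pluripotency genes in general.

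**Figure D5:**
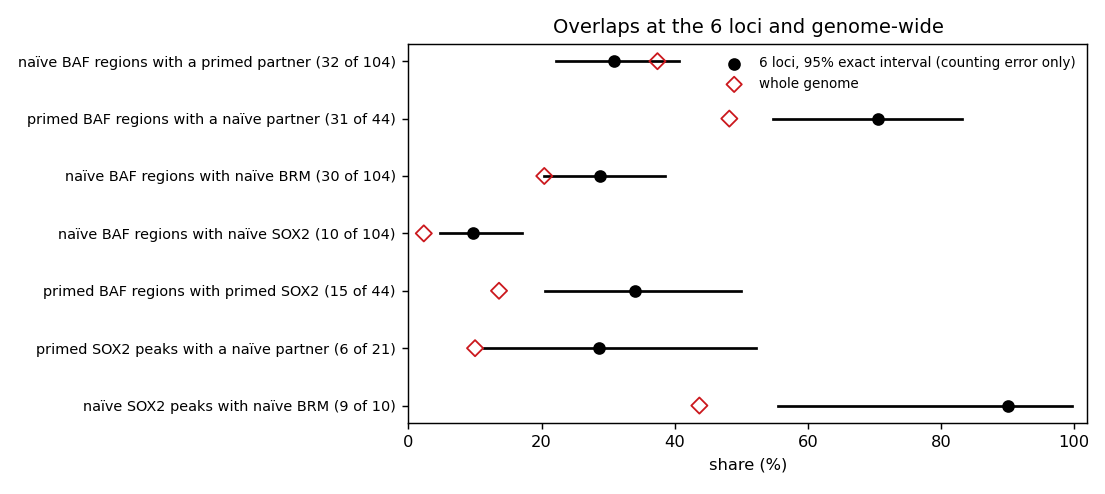
Shares of regions or peaks that overlap another list (x axis, percent) at the 6 loci (black points with exact 95% intervals for counting error) and in the whole genome (open red diamonds), with counts in the row labels. Primed BAF regions with a naïve partner stand at 70.5% against 48.2%, and naïve BAF regions with a primed partner at 30.8% against 37.4%.

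The state-specific BAF regions were spread over the windows. More than 5 kb from the start were 98.6% of naïve-only regions (71 of 72; 92.5 to 100%), 92.3% of primed-only regions (12 of 13; 64 to 99.8%) and 70% of common regions (21 of 30; 50.6 to 85.3%). Between 91.8 and 92.9% of each window lies that far from the start, and over the windows of all protein-coding genes the shares were 93.4%, 91.4% and 80.2%, and each interval of the loci includes the corresponding share. None of the 72 naïve-only and 13 primed-only regions had its midpoint within 1 kb of the start, against 4 of the 30 common regions. The shares within 1 kb over all protein-coding genes were not computed. These counts thus stand without a background, and so short a stretch is a small part of each window. Of the distal regions, 11 naïve-only, 2 primed-only and 9 common ones were within 1 kb of the start of another annotated transcript, so not all of them lie between promoters.

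The starts covered by peaks were counted for each list, over 6 genes and without a test. The start lay in a naïve BRG1 peak at 5 of the 6 genes, all but NANOG, against 45.7% of protein-coding genes. It lay in a primed BRG1 peak at 3 of 6, SOX2, LIN28A and PRDM14, against 17.0%. At NANOG both BRG1 lists covered the 5′ end of the gene record, 1608 bp upstream of the start used. For BAF155 the counts were 4 of 6 in naïve cells, against 46.0%, and 5 of 6 in primed cells, all but POU5F1, against 61.8%. So few genes cannot set the BRG1 or the BAF155 counts apart from the background. Naïve BRM covered the start of 1 of 6, against 6.79%. SOX2 covered 1 of 6 starts in naïve cells and 3 of 6 in primed cells (NANOG, LIN28A and SALL4), against 0.948% of protein-coding genes in the primed list. POU5F1 was the only member with no primed peak of any list over its start. Of the 16 other pluripotency genes, the start lay in a naïve BRG1 peak at 7 and in a primed one at 3. For BAF155 these counts were 9 and 11, for SOX2 1 and 2, and for naïve BRM 2.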

How the data were processed

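ChIP-seq peak lists of 10 samples were analysed, and 4 input libraries have no list used here. According to the methods of the study and the labels, reads were trimmed with trim_galore, mapped to hg38 with Bowtie2 (2.3.4), filtered with SAMtools (0.1.19) and PICARD, and called with MACS2 against input, as narrow peaks for SOX2 (paired-end) and broad peaks for the BAF subunits (single-end). Each deposited list gives positions, and most give the authors' score, a linear fold over input, a −log10 p-value and a −log10 q-value. The lowest −log10 q was about 1 in the BAF lists and 1.31 and 1.35 in the SOX2 lists. Primed BRM and the repeat SOX2 lists give positions alone. The lists of both SOX2 libraries held 1941 and 9291 identical peaks per state. Whether they were pooled before calling is not given in the sources used here.

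The analysis kept peaks of the autosomes and of X and Y, none past the end of an hg38 chromosome. The start of a gene is that of its MANE Select transcript, since the gene record of POU5F1 begins 10049 bp further upstream. The records of NANOG and PRDM14 begin 1608 and 441 bp further upstream. Overlap (bedtools 2.31.1) required 25% of either region. Distal regions have their midpoint over 5 kb from the start. Motifs were searched on both strands of 200 bp at peak midpoints. Sequences are from hg38, exclude UTR bases, and none was taken from the PRDM14 locus. The overlap and motif steps were tested on simulated data.

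The sites named were the peaks over each start, all SOX2 peaks, the naïve BRM peak of highest fold, and the naïve-only and primed-only BAF regions of highest fold at each locus. The members, the list of 16 other genes and the rule were chosen with earlier results of these data known. Alternatives were windows of 20 and 100 kb, a −log10 q of 3 or more, a fold of 4 or more, lists of equal length, other overlap rules, BRG1 or BAF155 alone, and each SOX2 list alone. Added after seeing the data were the gene record's 5′ end as the start, and peak counts under equal list lengths and the stricter q-value.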

Additional observations from a re-analysis of the deposited data

How the results depend on the processing

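No paired analysis was possible because the result comes from no test and both SOX2 lists of a state are the same. Values were recomputed 98 times over 19 results, and 70 stayed within the interval of the value reported (for counts, within 1.5 times). Without replicate 1 or without replicate 2 of SOX2, the SOX2 shares were 9.62%, 34.1% and 28.6%, which could not change because the lists are identical. The 70 include these values and counts of lists that equal length left uncut, so 70 of 98 overstates the stability. The values that moved follow, and their causes were not tested unless named.

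With 20 kb on each side, 46.8% of naïve BAF regions had a primed partner and 51.9% of primed ones held SOX2. At a −log10 q of 3 or more, 17.8% of naïve regions held SOX2. The windows then held 31 naïve BRG1, 36 naïve BAF155, 11 naïve BRM, 10 primed BRG1 and 28 primed BAF155 peaks. At this cut the BRG1 lists held 16144 naïve and 4482 primed peaks, so the larger naïve count does not allow for list length. A fold of 4 or more left 5 naïve and 15 primed regions. Of these primed regions 13.3% had a naïve partner and 53.3% held SOX2, of the naïve ones 20% held BRM and 20% SOX2, and 66.7% of 3 naïve-only and 0% of 2 common regions were distal. With lists of equal length, 15.9% of primed regions held SOX2 and 0% of naïve regions held BRM, since 167 BRM peaks were then kept, and the windows held 29 naïve BRG1 and 8 primed SOX2 peaks.

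Where 50% of both regions had to overlap, which narrow peaks in wide regions cannot reach, 12.5% of naïve regions had a primed and 29.5% of primed regions a naïve partner, 4.81% of naïve regions held BRM, 0.962% held SOX2, and 6.82% of primed regions held SOX2. With BRG1 alone, 21.2% of naïve regions had a primed partner, and 57.1% of primed-only and 44.4% of common regions were distal. From the 5′ end of the POU5F1 gene record in place of the MANE Select start, 2 lists had a peak in the proximal window and 0 in the distal one, against 5 and 7.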
